A study of Mus musculus with 6 samples.

Results

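The genes described here are 50 components of the mitotic machinery, chosen by name for their known roles in the mitotic spindle, the spindle checkpoint and chromosome segregation, among 13883 genes measured by RNA sequencing of mouse CD8 T cells. All 50 were in the deposited table, each as 1 row, and all 50 passed the filter on low values. The cells were taken from wild-type mice (lymph nodes and spleen), were activated through CD3 and CD28 with antibodies, and were exposed overnight to NaCl at 20 mM as the control or to DAHB, a compound for which the labels give no other name, at the same 20 mM. Each group held 3 samples of 100000 cells, and every sample shared the genotype, the activation and the batch label. Age and sex are not given in the sources used here. Whether samples within a group were separate cultures or different mice is not stated in the labels, so the p-values reflect sample-to-sample spread alone, and that spread may be technical.

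Activated CD8 T cells divide rapidly, and each division needs a bipolar spindle that pulls sister chromatids apart. Kinetochores that lack microtubules hold back the anaphase-promoting complex (APC/C) through the spindle assembly checkpoint. Once all chromosomes are attached, the complex is switched on by its activator CDC20, securin is destroyed, separase cuts cohesin, and the central spindle then directs the cleavage of the cell. Most of these genes are transcribed late in the cell cycle, so in bulk RNA a smaller share of cells in mitosis and less mRNA per cell cannot be told apart.

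The 6 libraries held 31055613 to 56007582 reads counted in genes. The table held all 9 genes of a CD8 T cell marker list, with summed normalised counts of 75880.1 to 76808 with NaCl and 74231 to 78431 with DAHB. Within it 4 genes rose, among them Cd8a from 12729 ± 357 to 19112 ± 449.5 (SD, n = 3) and Cd8b1 from 7271 ± 154 to 10385 ± 633 (SD, n = 3), and 3 fell, among them Cd5 from 28287 ± 830.2 to 19312 ± 632 (SD, n = 3) and Trac from 7194 ± 108 to 5823 ± 169.5 (SD, n = 3). Of other cell types, 2 of 8 B cell markers (138 to 177 against 562 to 639), 8 of 10 myeloid markers (706 to 1673 against 1433 to 1667) and 6 of 10 stromal and endothelial markers (856 to 1005 against 1526 to 1594) were in the table. The B cell difference came from Cd79b, which rose from 133 ± 15.7 to 586 ± 37.0 (SD, n = 3), while Ebf1 was at 23.9 ± 3.74 with NaCl and 14.5 ± 1.85 with DAHB (SD, n = 3) and did not pass. That of the stromal and endothelial list came from Pecam1 and Pdgfrb, which rose from 610.0 ± 36.1 to 1108 ± 36.3 (SD, n = 3) and from 61.4 ± 2.32 to 195 ± 31.4 (SD, n = 3). The other 4 of that list did not pass, and Col3a1 and Col1a2 had lower means with DAHB. The CD4 T cell list stood at 659 to 675 against 1561 to 1885, mostly from Zbtb7b. Cd4 itself rose from 11.6 ± 6.46 to 65.5 ± 9.88 (SD, n = 3), and Cd40lg did not pass. The NK cell list stood at 6863 to 6975 against 10620.5 to 11750.0, mostly from Nkg7. Mean counts of Nkg7 were 6534 with NaCl and 9996 with DAHB, a level near that of Cd8b1. All 3 measured NK genes rose, with log2 fold changes of 0.61 for Nkg7, 1.75 for Eomes and 2.06 for Klrb1f. Among myeloid markers Lyz2, Adgre1 and Itgax rose (log2 fold changes 0.67, 0.54 and 1.47), and 5 did not pass. The groups overlapped in Lyz2 and Itgax. Of 7 erythroid markers 0 were in the table, and the B cell genes Ms4a1, Cd79a and Pax5 were not in it either, which is no measurement because genes with few reads had been left out. Bulk RNA does not tell which cells held these mRNAs, so a higher sum for a list is no measure of other cells. The part of other cells in the results was not tested.

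The comparison asked which mitotic mRNAs differed between cells given DAHB and cells given NaCl. Cdc20, which encodes the APC/C activator of metaphase, fell most among them, and the securin gene Pttg1 rose most. The Polo kinase gene Plk1, the centromeric histone gene Cenpa, the kinesin gene Kif20a and the spindle gene Nusap1 also fell, and the topoisomerase gene Top2a rose. Of the 50 members, 25 fell and 4 rose (limma-trend on log2(normalised count + 1), Benjamini-Hochberg adjusted p under 0.05 over all 13804 genes tested), and 21 did not pass. Over all genes tested 58.5% were called, 29.1% lower and 29.4% higher. Among the 6372 genes whose mean count lay within the range of the members, 44.5% were called lower and 23.3% higher, so the share of members that fell (25 of 50) lay close to that of genes of similar abundance. The share that rose, 4 of 50, was 12 of 50 both under quantile normalisation and with GC content and length corrected, and its difference from other genes was not tested. The median log2 fold change was -0.11 for the members, -0.10 for genes in that range and 0.0019 for all genes. The groups did not overlap in 32 of the 50 members, against 63.4% of all genes and 4567 of the 6372 genes in that range. The 44.5% and 23.3% are also the background for the counts by role below, and no role was tested against them.

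Most changes were small. Called changes of at least 1.5-fold were found in 2 members that fell, Cdc20 and Plk1, and in 1 that rose, Pttg1. Over all genes tested, 6.92% fell and 16.3% rose by that much. Among the 6372 genes in the members' range of mean counts, 397 fell and 329 rose by that much. Values are relative to the bulk of genes through the size factor of each library. Under quantile normalisation 17 members were lower and 12 higher, and after a correction of each library for GC content and exon length 24 were lower and 12 higher. Without DAHB replicate 2 there were 7 higher. Of the 25 falls 16 and of the 4 rises 3 (Pttg1, Top2a and Racgap1) kept their call under all 18 alternative settings, and no called member changed sign under any of them.

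**Figure D1:**
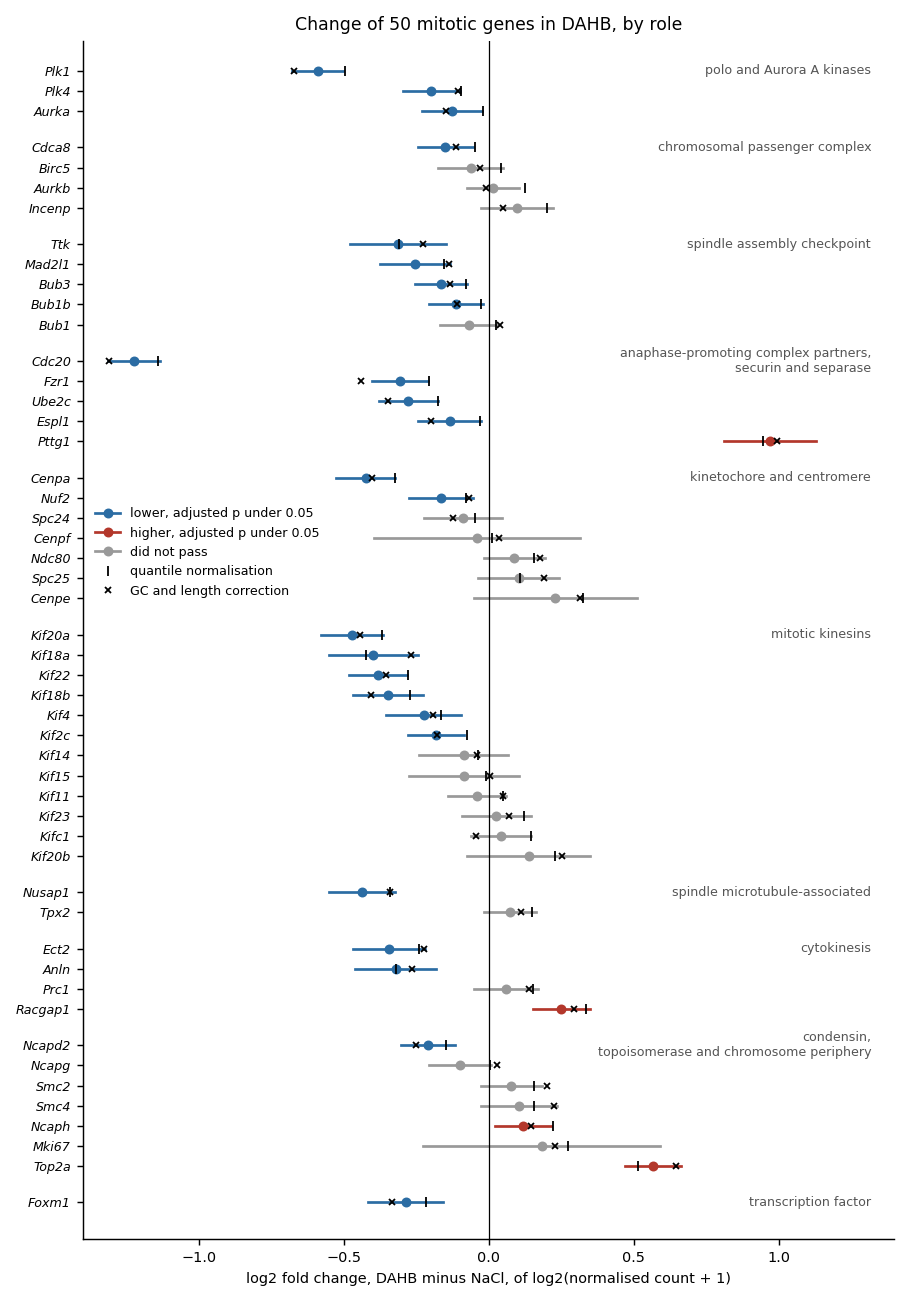
Log2 fold changes (DAHB minus NaCl, of log2(normalised count + 1)) of the 50 members grouped by role, with 95% intervals from limma over 3 libraries a group; vertical ticks show the value under quantile normalisation and crosses the value with GC content and length corrected. Cdc20 at -1.22 and Pttg1 at 0.97 lie farthest from 0, and the intervals of Mki67, Cenpf and Cenpe are the widest.

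The products of Cdc20 and Fzr1 activate the APC/C in metaphase and in late mitosis and G1, Ube2c encodes the ubiquitin-conjugating enzyme that works with it, and Pttg1 and Espl1 encode securin and the protease separase. In this group 4 of 5 genes fell and 1 rose. Cdc20 (ENSMUSG00000006398, chromosome 4, 118432901 to 118437352, minus strand, GRCm38) had normalised counts of 8628, 8442 and 8593 with NaCl and 3754, 3579 and 3647 with DAHB. The groups were far apart, and within each the libraries lay close together. The mean fell from 8554 ± 99.1 to 3660.0 ± 88.0 (SD, n = 3), which is 57.2% fewer (log2 fold change -1.22, SE 0.042, adjusted p = 3.25e-11). Only 1.22% of all genes tested had a lower log2 fold change. Pttg1 (ENSMUSG00000020415, chromosome 11, 43420250 to 43426251, minus strand) had normalised counts of 481, 568 and 556 with NaCl and 1043, 1039 and 1059 with DAHB. Every DAHB library lay above every NaCl library, and the mean went up from 535 ± 46.9 to 1047 ± 10.8 (SD, n = 3; log2 fold change 0.97, SE 0.074, adjusted p = 8.08e-08). Fzr1 fell from 3807 ± 96.3 to 3078 ± 75.2 (SD, n = 3), and Ube2c from 4660.1 ± 43.8 to 3844 ± 191 (SD, n = 3), with log2 fold changes of -0.31 and -0.28. Espl1 fell by less, from 4662 ± 176 to 4248 ± 233 (SD, n = 3; log2 fold change -0.14, SE 0.051, adjusted p = 0.0335), a call lost under quantile normalisation (adjusted p = 0.624), with equal library totals (adjusted p = 0.0621) and without NaCl replicate 1 or 2 or DAHB replicate 2 or 3 (adjusted p = 0.0609 to 0.150).

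**Figure D2:**
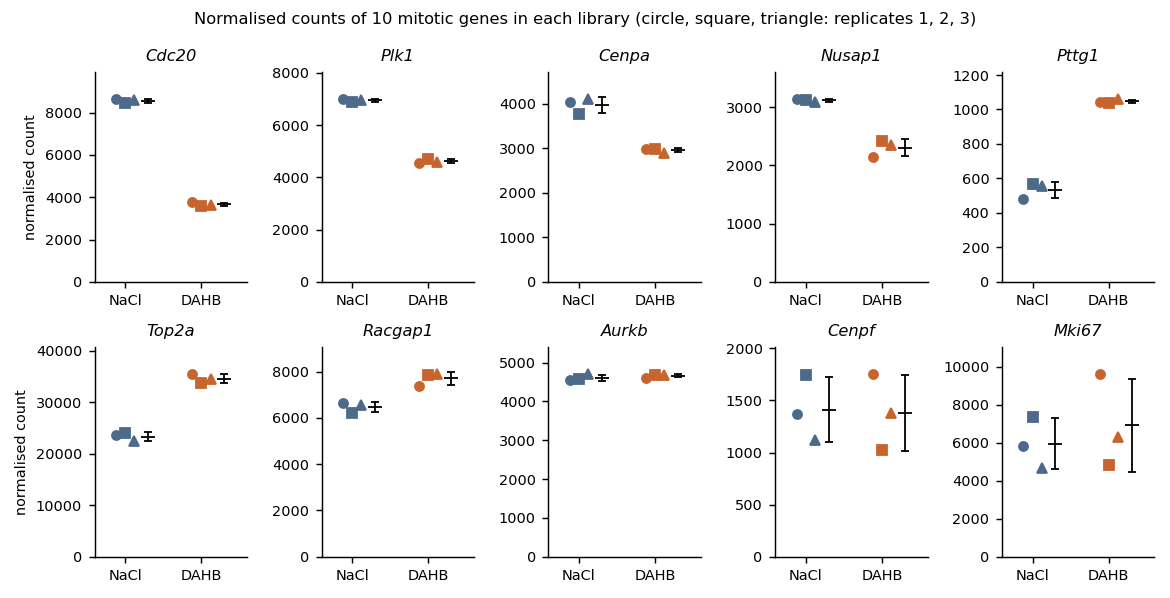
Normalised counts of 10 members in each of the 6 libraries, with circles, squares and triangles for replicates 1, 2 and 3 and black bars for the mean ± SD (n = 3); every vertical axis starts at 0. The groups are apart in Cdc20, Plk1, Cenpa, Nusap1, Pttg1, Top2a and Racgap1 and overlap in Aurkb, Cenpf and Mki67.

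The checkpoint genes encode the proteins that sense unattached kinetochores: the kinases of Ttk and Bub1, and the products of Bub1b, Bub3 and Mad2l1, which bind and hold CDC20. Of these 5 genes 4 fell and 0 rose, with 2 lower under quantile normalisation. Ttk had normalised counts of 997, 1165 and 1130.4 with NaCl and 866, 819 and 961 with DAHB. All DAHB libraries lay below the NaCl libraries, with the 2 nearest at 961 and 997 (log2 fold change -0.31, SE 0.077, adjusted p = 0.00281). Mad2l1 fell from 4653 ± 143 to 3906 ± 308 (SD, n = 3; log2 fold change -0.26, SE 0.056, adjusted p = 0.00136) and Bub3 from 6743 ± 125 to 6013 ± 147 (SD, n = 3; log2 fold change -0.17, SE 0.042, adjusted p = 0.00369). The call on Bub3 was lost under quantile normalisation (adjusted p = 0.0892). Bub1b was at 6727 ± 146 with NaCl and 6222 ± 205 with DAHB (SD, n = 3) and passed narrowly (adjusted p = 0.0378). Its call was lost once quantiles were normalised (adjusted p = 0.615), with equal library totals, by edgeR, and without any of the libraries but DAHB replicate 1 (adjusted p = 0.0529 to 0.148). Bub1 was at 2461 ± 75.3 with NaCl and 2344 ± 22.8 with DAHB (SD, n = 3; log2 fold change -0.070, 95% interval -0.17 to 0.032, adjusted p = 0.223).

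Polo-like kinases and Aurora A drive centrosome maturation and spindle assembly. All 3 of these genes fell. Plk1 (ENSMUSG00000030867, chromosome 7, 122159439 to 122169873, plus strand) had normalised counts of 6991, 6888 and 6982 with NaCl and 4558, 4697 and 4595 with DAHB. The groups were far apart, with little spread inside each (log2 fold change -0.59, SE 0.041, adjusted p = 3.14e-08). Plk4, which governs centriole duplication, fell from 3567 ± 52.7 to 3109.5 ± 97.9 (SD, n = 3; log2 fold change -0.20, SE 0.045, adjusted p = 0.00172), a call lost under quantile normalisation (adjusted p = 0.0775). Aurka fell from 4348 ± 225 to 3976 ± 73.9 (SD, n = 3; log2 fold change -0.13, SE 0.048, adjusted p = 0.0338), and its call was lost once quantiles were normalised (adjusted p = 0.711) and without NaCl replicate 1 or 3 or DAHB replicate 3 (adjusted p = 0.0787 to 0.183).

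The chromosomal passenger complex joins the kinase Aurora B to INCENP, survivin (Birc5) and borealin (Cdca8) and corrects faulty attachments. Of its 4 genes 1, Cdca8, fell from 4044 ± 99.6 to 3643 ± 81.3 (SD, n = 3; log2 fold change -0.15, SE 0.044, adjusted p = 0.00927), a call lost under quantile normalisation (adjusted p = 0.347) and without NaCl replicate 3 (adjusted p = 0.0579). Aurkb had normalised counts of 4559, 4570.0 and 4698 with NaCl and 4612, 4668 and 4688 with DAHB. The groups overlapped, and the 95% interval of the log2 fold change ran from -0.074 to 0.10 (adjusted p = 0.786). Birc5 was at 2733 ± 57.5 with NaCl and 2619 ± 156 with DAHB (SD, n = 3; log2 fold change -0.063, 95% interval -0.18 to 0.049, adjusted p = 0.320) and Incenp at 5277 ± 101 with NaCl and 5660.2 ± 499 with DAHB (SD, n = 3; log2 fold change 0.10, 95% interval -0.026 to 0.22, adjusted p = 0.163). The balance of this group depended on scaling: under quantile normalisation none of its genes was lower, and Aurkb and Incenp were called higher (log2 fold changes 0.12 and 0.20, adjusted p = 0.0188 and 0.0109), Incenp also without DAHB replicate 2 (adjusted p = 0.0123).

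Kinetochores rest on chromatin that carries the histone variant CENP-A and grip microtubules through the NDC80 complex, encoded by Ndc80, Nuf2, Spc24 and Spc25, with the motor CENP-E and the large coiled-coil protein CENP-F at their outer face. Of these 7 genes 2 fell and 5 did not pass. Cenpa (ENSMUSG00000029177, chromosome 5, 30666777 to 30674830) had normalised counts of 4046, 3771 and 4096 with NaCl and 2978, 2989 and 2895 with DAHB. The groups were well separated (log2 fold change -0.43, SE 0.047, adjusted p = 3.40e-06). Of the NDC80 complex, Nuf2 alone passed. It fell from 2241 ± 116 to 1995 ± 25.1 (SD, n = 3; log2 fold change -0.17, SE 0.052, adjusted p = 0.0128), a call lost under quantile normalisation (adjusted p = 0.205), with GC content and length corrected (adjusted p = 0.230) and without NaCl replicate 1 (adjusted p = 0.0858). Ndc80 was at 1595 ± 14.2 with NaCl and 1695 ± 34.7 with DAHB (SD, n = 3) without overlap between the groups, yet did not pass (log2 fold change 0.088, 95% interval -0.018 to 0.19, adjusted p = 0.145); it was called higher under quantile normalisation and with GC content and length corrected (adjusted p = 0.0177 and 0.00356). Spc24 (log2 fold change -0.089, 95% interval -0.22 to 0.046, adjusted p = 0.243) and Spc25 (log2 fold change 0.10, 95% interval -0.038 to 0.24, adjusted p = 0.197) did not pass, and Spc25 was called higher with GC content and length corrected (adjusted p = 0.00865) and without DAHB replicate 1 (adjusted p = 0.0475). Cenpe (log2 fold change 0.23, 95% interval -0.053 to 0.51, adjusted p = 0.151) and Cenpf (log2 fold change -0.041, 95% interval -0.40 to 0.31, adjusted p = 0.851) had wide intervals, and Cenpe was called higher without DAHB replicate 2 (adjusted p = 0.00576) and with GC content and length corrected (adjusted p = 0.0318). Corrected for GC content and length, 1 gene of this group was lower and 3 were higher, so its balance turned.

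Mitotic kinesins slide, crosslink or shorten microtubules. Of 12 kinesin genes 6 fell and 0 rose, against 44.5% and 23.3% of genes in the members' range of abundance. Kif20a, whose motor carries the passenger complex to the central spindle, had normalised counts of 3683, 3762 and 3426 with NaCl and 2673, 2536 and 2621 with DAHB (log2 fold change -0.47, SE 0.050, adjusted p = 1.95e-06). It shares 1271 bases of exon, 29.3% of its exon length, with the APC/C subunit gene Cdc23 on the opposite strand, which fell by a log2 fold change of -0.60. Without a stated strand setting the reads of both genes cannot be told apart there. The other 5 that fell were Kif18a and Kif18b, which limit chromosome oscillation and microtubule length, Kif22, a chromosome-arm motor, the chromokinesin gene Kif4 and the microtubule depolymerase gene Kif2c. Kif18a fell from 882 ± 36.1 to 669.6 ± 51.4 (SD, n = 3; log2 fold change -0.40, SE 0.072, adjusted p = 2.76e-04) and Kif18b from 1989 ± 72.2 to 1562 ± 83.6 (SD, n = 3; log2 fold change -0.35, SE 0.056, adjusted p = 9.54e-05). Kif22 fell from 3275 ± 106 to 2510.2 ± 34.1 (SD, n = 3; log2 fold change -0.38, SE 0.046, adjusted p = 7.14e-06). Log2 fold changes were -0.23 for Kif4 and -0.18 for Kif2c, and the call on Kif2c was lost under quantile normalisation (adjusted p = 0.172). Kif11 and Kifc1 did not pass: Kif11 was at 6296 ± 273 with NaCl and 6113 ± 207 with DAHB (SD, n = 3; log2 fold change -0.042, 95% interval -0.14 to 0.058, adjusted p = 0.464), and Kifc1 at 2554 ± 102 with NaCl and 2626 ± 39.2 with DAHB (SD, n = 3; log2 fold change 0.041, 95% interval -0.062 to 0.14, adjusted p = 0.491). Kifc1 was called higher under quantile normalisation alone (log2 fold change 0.14, adjusted p = 0.0200). Kif23, the motor of the centralspindlin complex, was at 2350.2 ± 105 with NaCl and 2393 ± 129.7 with DAHB (SD, n = 3; log2 fold change 0.026, 95% interval -0.093 to 0.14, adjusted p = 0.717). Kif14, Kif15 and Kif20b did not pass either, with log2 fold changes of -0.088, -0.087 and 0.14. Kif14 and Kif15 were called lower without DAHB replicate 1 (adjusted p = 0.0282 and 0.0496), and Kif20b was called higher without DAHB replicate 2 (adjusted p = 0.0102) and with GC content and length corrected (adjusted p = 0.0319).

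Of the spindle proteins, NUSAP1 bundles microtubules at chromosomes and TPX2 activates Aurora A. Nusap1 had normalised counts of 3135, 3128 and 3085 with NaCl and 2136, 2422 and 2350.2 with DAHB. The groups did not overlap (log2 fold change -0.44, SE 0.053, adjusted p = 7.44e-06). Tpx2 was at 6854 ± 149 with NaCl and 7212 ± 159 with DAHB (SD, n = 3) and did not pass, although the groups did not overlap (log2 fold change 0.073, 95% interval -0.016 to 0.16, adjusted p = 0.149); it was called higher under quantile normalisation and with GC content and length corrected (adjusted p = 0.00484 and 0.0171). Among 4 cytokinesis genes 2 fell and 1 rose. Ect2, the exchange factor that activates RhoA at the cleavage furrow, fell from 3993 ± 98.6 to 3151 ± 259 (SD, n = 3; log2 fold change -0.34, SE 0.057, adjusted p = 1.40e-04), and the anillin gene Anln, which links the contractile ring to the membrane, fell from 1041 ± 74.2 to 832 ± 6.39 (SD, n = 3; log2 fold change -0.32, SE 0.065, adjusted p = 7.33e-04). Racgap1, the partner of KIF23 in centralspindlin, had normalised counts of 6647, 6228 and 6559.7 with NaCl and 7375, 7855 and 7889 with DAHB. All DAHB libraries lay above the NaCl libraries (log2 fold change 0.25, SE 0.046, adjusted p = 3.02e-04). Prc1, the midzone crosslinker, was at 2246 ± 42.2 with NaCl and 2339.6 ± 118 with DAHB (SD, n = 3; log2 fold change 0.058, 95% interval -0.053 to 0.17, adjusted p = 0.357), and was called higher under quantile normalisation and with GC content and length corrected (adjusted p = 0.0268 and 0.0160), which left 2 cytokinesis genes lower and 2 higher in either.

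Condensin I, built from the products of Smc2, Smc4, Ncapd2, Ncapg and Ncaph, compacts mitotic chromosomes together with topoisomerase II alpha (Top2a), which untangles sister DNA, and the chromosome-coating protein of Mki67, a common marker of proliferating cells. Of these 7 genes 1 fell and 2 rose. Top2a (ENSMUSG00000020914, chromosome 11, 98992943 to 99024189, minus strand) had normalised counts of 23595, 24016 and 22466 with NaCl and 35452, 33811 and 34518 with DAHB. The groups were far apart, and the mean went up from 23359 ± 802 to 34594 ± 823 (SD, n = 3; log2 fold change 0.57, SE 0.044, adjusted p = 1.12e-07). Ncapd2 fell from 10008 ± 174 to 8662 ± 333 (SD, n = 3; log2 fold change -0.21, SE 0.043, adjusted p = 8.53e-04). Ncaph also rose, going from 2924 ± 71.2 to 3174 ± 36.9 (SD, n = 3; log2 fold change 0.12, SE 0.045, adjusted p = 0.0343), a call lost without NaCl replicate 1 or 3 or DAHB replicate 2 or 3 (adjusted p = 0.0557 to 0.146). Smc2 (log2 fold change 0.077, 95% interval -0.027 to 0.18, adjusted p = 0.188) and Smc4 (log2 fold change 0.10, 95% interval -0.027 to 0.24, adjusted p = 0.159) did not pass and were called higher under quantile normalisation (adjusted p = 0.0111 and 0.0409) and with GC content and length corrected (adjusted p = 0.00118 and 0.00388). Ncapg (log2 fold change -0.10, 95% interval -0.21 to 0.0078, adjusted p = 0.103) did not pass and was called lower without DAHB replicate 2 (adjusted p = 0.0277).

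Mki67 had normalised counts of 5837, 7329.7 and 4676 with NaCl and 9605, 4846 and 6277 with DAHB. Both groups held a high and a low library, and the interval of the log2 fold change ran from -0.23 to 0.59 (adjusted p = 0.437); without DAHB replicate 2 it was called higher (log2 fold change 0.41, adjusted p = 0.0311), and without DAHB replicate 1 the value was -0.085. Cenpf showed the same order of libraries, at 1373, 1745 and 1122 with NaCl and 1752, 1024 and 1375 with DAHB, and Cenpe did too, at 2304, 2646 and 2080.5 with NaCl and 3564, 2203 and 2600.0 with DAHB. The SD of log2 values within groups was 0.42 for Mki67, 0.35 for Cenpf and 0.28 for Cenpe, against a median of 0.058 over the members. In these 3 genes, as in Kif15 and Kif14, NaCl replicate 2 and DAHB replicate 1 were the highest of their groups and NaCl replicate 3 and DAHB replicate 2 the lowest. Exon bases were merged over all annotated transcripts of a gene, so a single transcript can be shorter. The same highest and lowest libraries were found in 6 of the 11 members with at least 8000 such bases, these 5 and Top2a. They were also found in 6 of the 39 members below that, Kif4, Kif11, Kif20a, Kif23, Incenp and Smc2. Kif18a, Mad2l1, Espl1, Prc1 and Anln also have at least 8000 such bases and did not follow this order. Over 1346 genes of at least that length and at least the abundance of the lowest member, the median deviation from the group mean was 0.044 in NaCl replicate 2 and 0.035 in DAHB replicate 1, and -0.028 and -0.031 in NaCl replicate 3 and DAHB replicate 2 (log2 scale). The part of transcript length or RNA quality in this spread was not tested.

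**Figure D3:**
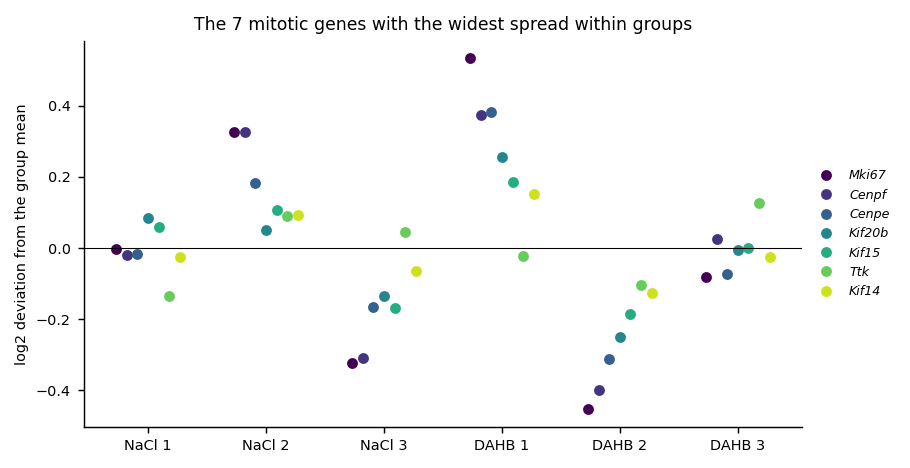
Deviation of each library from its group mean (log2(normalised count + 1)) for the 7 members with the largest SD within groups. Mki67 and Cenpf reach 0.53 and 0.37 in DAHB replicate 1 and -0.45 and -0.40 in DAHB replicate 2, while Kif20b departs from this order with NaCl and Ttk in both groups.

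Foxm1 encodes a transcription factor that, with B-MYB and the MuvB complex, switches on late cell cycle genes. It had normalised counts of 1883, 1976 and 1716 with NaCl and 1572, 1518 and 1472 with DAHB, and all DAHB libraries lay below the NaCl libraries (log2 fold change -0.29, SE 0.060, adjusted p = 9.09e-04). MuvB complexes, which activate with B-MYB and FOXM1 and repress as the DREAM complex, bind the cell cycle genes homology region (CHR) in such promoters, often beside CCAAT boxes bound by NF-Y. Promoter windows of 300 bases, 250 before to 50 after a gene's start (RefSeq, GRCm38.p6), were found for 43 of the 50 members. Each window was searched on both strands for the CHR, spelled TTTGAA in its first form and, with another letter in the middle, TTCGAA in its second, which reads the same on both strands. Either form was present in 33 of the 43 members (76.7%), against 16.4% of 10160 tested genes with a window and 21.7% of all 27025 genes in the promoter table. CCAAT was present in 69.8% of members and 43.1% of tested genes, and both together in 65.1% and 6.92%; a CHR and a CCAAT box can share at most 1 base. Among members that fell, 17 of 23 held the CHR letters (73.9%), and among members that rose or did not pass, 16 of 20. A match is a description of these letters, not a bound site.

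The windows of the members with the largest fall and the largest rise, and of the next 2 called members by size of change that hold a CHR, show this on single genes. Cdc20 (chr4:118437294-118437593, minus strand) and Plk1 (chr7:122159185-122159484, plus strand) fell, and Top2a (chr11:99024140-99024439, minus strand) and Pttg1 (chr11:43425932-43426231, minus strand) rose. Each is printed 5′ to 3′ along the gene, with matches to a CHR form or a CCAAT box on either strand in capitals.
Cdc20: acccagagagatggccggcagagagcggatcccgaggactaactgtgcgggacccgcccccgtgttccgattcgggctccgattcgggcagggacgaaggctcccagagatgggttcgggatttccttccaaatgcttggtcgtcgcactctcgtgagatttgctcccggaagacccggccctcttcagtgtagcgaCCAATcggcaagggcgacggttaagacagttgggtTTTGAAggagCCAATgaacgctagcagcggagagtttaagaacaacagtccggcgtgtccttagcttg
Plk1: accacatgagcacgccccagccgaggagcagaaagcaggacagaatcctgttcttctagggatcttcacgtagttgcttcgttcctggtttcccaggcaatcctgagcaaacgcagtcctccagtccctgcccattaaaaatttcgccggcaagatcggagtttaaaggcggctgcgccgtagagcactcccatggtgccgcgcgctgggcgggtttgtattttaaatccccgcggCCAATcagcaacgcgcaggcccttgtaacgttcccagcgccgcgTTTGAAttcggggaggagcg
Top2a: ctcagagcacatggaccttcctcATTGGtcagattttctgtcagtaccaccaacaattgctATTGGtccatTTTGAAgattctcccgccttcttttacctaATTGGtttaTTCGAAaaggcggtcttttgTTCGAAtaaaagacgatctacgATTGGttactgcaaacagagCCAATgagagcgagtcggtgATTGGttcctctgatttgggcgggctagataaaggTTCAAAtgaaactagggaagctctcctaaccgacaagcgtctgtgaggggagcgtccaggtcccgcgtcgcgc
Pttg1: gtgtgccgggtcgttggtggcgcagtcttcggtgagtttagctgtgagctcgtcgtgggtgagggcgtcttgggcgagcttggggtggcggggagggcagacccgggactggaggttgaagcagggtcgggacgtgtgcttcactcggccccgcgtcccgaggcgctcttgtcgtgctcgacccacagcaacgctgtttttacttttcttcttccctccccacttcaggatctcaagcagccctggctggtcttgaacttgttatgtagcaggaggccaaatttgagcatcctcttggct
Cdc20 held a CHR beginning 18 bases before the start with a CCAAT box on either side of it, and Plk1 a CHR beginning 30 bases after the start. Top2a held both forms of the CHR and 6 CCAAT boxes and rose, and the Pttg1 window held none of these letters. The RefSeq start of Pttg1 lies inside the GENCODE gene, so its window is not the stretch before the GENCODE start.

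Levels of different members were compared as normalised counts per kilobase of exon, with the exons of all annotated transcripts of a gene merged. These values and places depend on that merged length and are not levels of single transcripts. With NaCl, Cdc20 was the highest member at 4579 ± 53.1 (SD, n = 3), followed by Plk1 at 3162 ± 26.1 and Top2a at 2592 ± 89.0. With DAHB, Top2a was the highest at 3838 ± 91.3, Plk1 next at 2099 ± 32.5 and Cdc20 after it at 1959 ± 47.1, where the neighbouring Smc4 stood at 1941 ± 148, within its own spread of Cdc20. Kif18a and Cenpf were the lowest in both groups, at 89.7 ± 3.67 and 91.6 ± 20.3 with NaCl and 68.1 ± 5.23 and 89.7 ± 23.6 with DAHB, which did not differ beyond the spread of Cenpf. Pttg1 moved from place 43 to place 27 of 50, at 268 ± 23.5 and 523 ± 5.42 per kilobase. In sum, the members took 0.595% ± 0.0141 of counted reads with NaCl and 0.586% ± 0.0281 with DAHB, and the groups overlapped.

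The ratio of 2 genes within a library does not depend on how that library was scaled. It was taken for 10 pairs of members that are partners or alternatives in a complex or pathway, chosen with earlier results of these data known. A comparison of 3 against 3 libraries cannot give an exact permutation p below 0.1, so no ratio could pass 0.05. The Cdc20 to Fzr1 ratio of normalised counts was 2.21, 2.27 and 2.26 with NaCl and 1.19, 1.19 and 1.18 with DAHB. The groups did not overlap, and the log2 ratio differed by -0.92 (two-sided exact permutation p = 0.1; 0.167 adjusted over the 10 pairs). The Pttg1 to Espl1 ratio was 0.105, 0.117 and 0.122 with NaCl and 0.231, 0.250 and 0.260 with DAHB, again without overlap (difference 1.11, exact p = 0.1). Plk1 to Plk4 was 1.93, 1.96 and 1.96 with NaCl and 1.52, 1.49 and 1.45 with DAHB, and all DAHB libraries were lower. Within the NDC80 complex, Ndc80 to Nuf2 was 0.678, 0.734 and 0.725 with NaCl and 0.835, 0.846 and 0.869 with DAHB, all higher with DAHB, and Spc24 to Spc25 was 1.48, 1.51 and 1.69 with NaCl and 1.48, 1.35 and 1.27 with DAHB, where the highest DAHB value lay just below the lowest with NaCl. Aurka to Tpx2 also did not overlap between groups (difference -0.20). Each of these 6 pairs had the smallest exact p possible, which restates that the groups did not overlap. The share of other gene pairs without overlap was not computed, and 63.4% of single genes tested did not overlap. The ratios of Aurkb to Birc5, Bub1 to Bub1b, Kif23 to Racgap1 and Smc2 to Smc4 overlapped between groups, with differences of 0.078, 0.043, -0.22 and -0.027 (exact permutation p = 0.3, 0.5, 0.2 and 0.8).

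**Figure D4:**
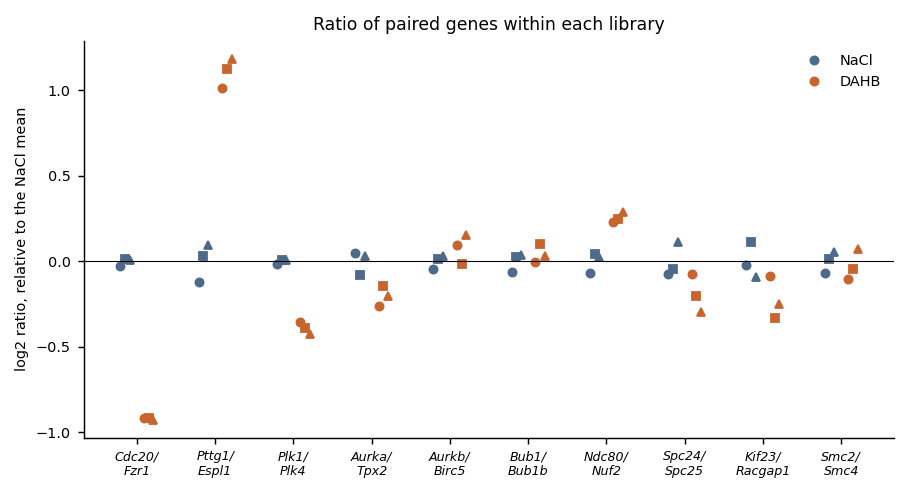
Log2 ratio of normalised counts of 10 pairs of members in each library, relative to the mean of the NaCl libraries (blue, NaCl; orange, DAHB; circles, squares and triangles for replicates 1, 2 and 3). Cdc20/Fzr1 and Pttg1/Espl1 differ most between the groups, by -0.92 and 1.11.

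The remaining genes of the machinery were described by lists. Of the core subunits of the APC/C, which form the ubiquitin ligase that CDC20 activates, 9 of 15 fell and 1 rose (median log2 fold change -0.13). Anapc1 fell from 11895 ± 344 to 7899 ± 195 (SD, n = 3) and Cdc23 from 3068 ± 58.4 to 2029 ± 93.7 (SD, n = 3), while Anapc11 rose from 1312 ± 75.8 to 1667 ± 102 (SD, n = 3). Of cohesin and its regulators, which hold sister chromatids together until separase acts, 12 of 17 fell and 1 rose (median log2 fold change -0.23). Esco2, which acetylates cohesin, fell from 1397 ± 61.6 to 845 ± 27.8 (SD, n = 3), and the cohesin subunit genes Stag1 and Stag2 fell as well (log2 fold changes -0.69 and -0.46). These shares, and those of the other lists below, stand beside 44.5% lower and 23.3% higher among genes in the members' range of abundance. Some list genes, such as Itgb3bp and Fam83d, had mean counts below that range, so this background is not fully like the lists. Over all genes tested, 29.1% were lower and 29.4% higher. No list was tested against them. Of the outer kinetochore and centromere network, 16 of 34 fell and 3 rose (median log2 fold change -0.12), with 6 higher once GC content and length were corrected. Cenpl and Ska2 fell by 0.67 and 0.56 on the log2 scale, and Itgb3bp, which encodes the centromere protein CENP-R, rose from 109 ± 20.2 to 195 ± 21.3 (SD, n = 3).

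Of spindle, centrosome and centriole genes, 15 of 38 fell and 9 rose (median log2 fold change -0.10). Fam83d, a spindle protein gene, fell from 420.2 ± 4.55 to 235 ± 18.2 (SD, n = 3), the augmin subunit gene Haus7 fell from 655 ± 36.5 to 427 ± 13.6 (SD, n = 3), and the spindle orientation gene Gpsm2 rose from 652 ± 65.4 to 1070.1 ± 114 (SD, n = 3). Of genes of the cyclin B-CDK1 switch, which starts mitosis, 11 of 18 fell and 2 rose (median log2 fold change -0.19), and 4 were higher once GC content and length were corrected. Falls were largest in Ccna2, from 8529 ± 83.8 to 5629 ± 405 (SD, n = 3), in Ccnf by 0.52 and in the phosphatase gene Cdc25b by 0.44 on the log2 scale. The cyclin B genes Ccnb1 and Ccnb2 fell by 0.29 and 0.35, and Cdk1 did not pass (log2 fold change 0.050). Of abscission and midbody genes, 4 of 19 fell and 7 rose (median log2 fold change -0.032), and the median was 0.051 under quantile normalisation. The septin gene Septin9 rose from 10612 ± 262 to 16874 ± 712 (SD, n = 3), and Septin2 and Ist1 fell (log2 fold changes -0.54 and -0.41). Of the 3 condensin II genes, Ncapg2 fell (log2 fold change -0.30) and Ncapd3 rose (0.13), the latter a call lost without NaCl replicate 1 or 3 or DAHB replicate 3 (adjusted p = 0.0573 to 0.129).

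Of the DREAM, B-MYB and E2F regulators, 11 of 22 fell and 3 rose (median log2 fold change -0.13). The MuvB subunit gene Lin52 fell from 352 ± 18.5 to 217 ± 23.1 (SD, n = 3), the repressor gene E2f7 from 449 ± 27.0 to 285 ± 12.7 (SD, n = 3), and Tfdp2, which encodes a dimerisation partner of E2F proteins, from 870.3 ± 36.1 to 572 ± 78.4 (SD, n = 3). Under quantile normalisation 8 of these regulators were lower and 6 higher, and 6 were higher once GC content and length were corrected. Of S phase and replication licensing genes, set beside the mitotic genes as the earlier step of the cycle, 17 of 36 fell and 7 rose (median log2 fold change -0.12), with 11 higher under quantile normalisation. Ccne2 fell from 2466 ± 56.2 to 1348 ± 203 (SD, n = 3), Slbp, whose product binds histone mRNA, from 5061 ± 194 to 3332 ± 211 (SD, n = 3), and Mcm5 by a log2 fold change of -0.50. The difference between the mitotic and the S phase genes was not tested.

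**Figure D5:**
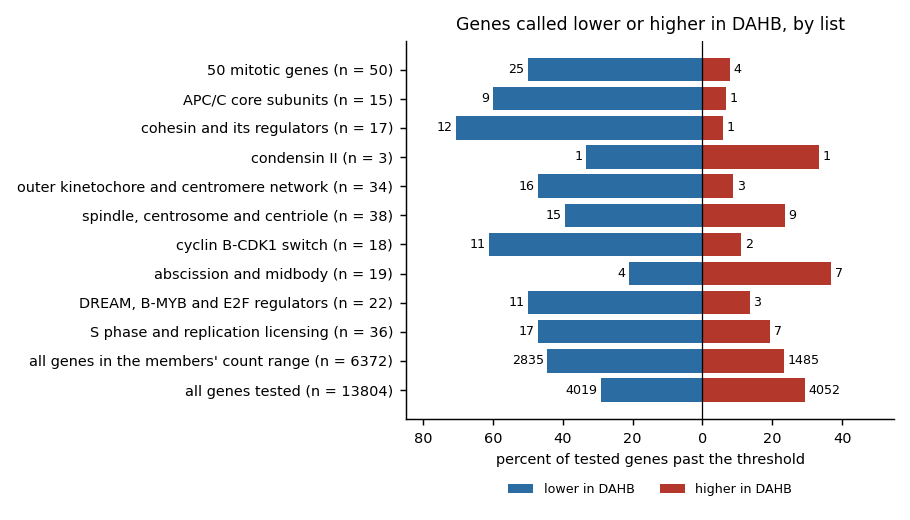
Percent of tested genes called lower (left, blue) and higher (right, red) in DAHB at an adjusted p under 0.05 for the 50 members, the other lists, all genes within the members' range of mean counts and all genes; numbers beside the bars are counts. The members fell in 25 of 50 and rose in 4, against 44.5% and 23.3% of genes in their range of abundance.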

How the data were processed

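Total RNA of 3 NaCl and 3 DAHB samples was sequenced. STAR 2.5.2b, featureCounts 1.5.2, Trimmomatic 0.36 and DESeq2 are named, with the build GRCm38, in the submitters' processing notes. The annotation release and strand setting are not given in the sources used here. The values the authors deposited are a normalised signal, read counts over a library's size factor. Within every library 100% of values divided into whole reads (tolerance 0.001), so whole reads were recovered. The lowest sum over the 6 libraries was 61 reads, so a low-count filter had been applied. Replicate libraries differed beyond sampling noise (chi-square over its degrees of freedom, 4.58 to 17.1).

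Genes reaching a normalised count of 10 in 3 or more libraries (13804) were tested as log2(normalised count + 1), pseudocount 1, with limma-trend (limma 3.58.1, R 4.3.3), two-sided, without a replicate block, with Benjamini-Hochberg adjustment over all genes and a threshold of 0.05. Fold changes are on this scale. On recovered reads edgeR 4.0.16 called 8084 genes and DESeq2 1.42.0 7670, against 8071 in limma. Exon lengths (all annotated exons of a gene merged), coordinates and GC content (longest transcript) came from GENCODE M21. Alternatives were pseudocounts of 0.5 and 10, no filter, a minimum of 50, quantile normalisation, equal totals, a robust prior, the replicate block, a GC and length correction, both together, and each library left out. The procedure was also run on simulated counts with few changed genes and no GC or length effects. Such a run cannot test the choice of scaling. Named genes are all members and, of each other list, up to 3 by largest change among those that passed and averaged 100 or more in the higher group. Not all of these are described. Further genes of the marker lists were named outside this rule, as were Cdk1, Ccnb1 and Ccnb2 and genes whose exons overlap those of members. Members, lists, pairs and motifs were chosen with earlier results of these data known. Python 3.11.15 with pandas 2.3.3, scipy 1.17.1 and matplotlib 3.10.9 was used.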

Additional observations from a re-analysis of the deposited data

How the results depend on the processing

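The number of members lower in DAHB was 25 and ranged from 17 (quantile normalisation) to 27 (without DAHB replicate 1). The number higher was 4 and became 12 under quantile normalisation and 12 with GC content and length corrected, with or without the replicate block. With 1 library left out it ran from 3 to 7. The counts over all genes stayed within 1.5 times their values under every alternative run. Same-numbered libraries did not deviate together (correlations -0.049, -0.15 and 0.041). Deviations from a mean of 3 libraries cannot show whether same-numbered samples shared a culture or a mouse. With the replicate block 22 members were lower and 3 higher; Aurka, Bub1b, Espl1 and Ncaph lost their call, and with the block and the GC and length correction together Plk4, Mad2l1 and Nuf2 did.

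Values that changed sign belonged to members that had not passed. Under quantile normalisation the log2 fold change was 0.043 for Birc5, 0.026 for Bub1, 0.011 for Cenpf, 0.048 for Kif11 and 0.0030 for Ncapg. After the GC and length correction, with or without the block, it was -0.0099 for Aurkb, 0.038 for Bub1, 0.034 for Cenpf, 0.050 for Kif11, 0.0029 for Kif15, -0.044 for Kifc1 and 0.029 for Ncapg. With 1 library left out the values spanned 0 for Cenpf (-0.23 to 0.16), Kif15 (-0.18 to 0.0062), Kif23 (-0.012 to 0.067), Mki67 (-0.085 to 0.41) and the Smc2 to Smc4 log2 ratio (-0.076 to 0.012). The cause of these changes was not tested. No spike-in or cell number per culture entered the values, so a common change of all mRNAs would not be seen. The lowest member mean was 535 normalised counts (Pttg1 with NaCl).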

Other observations

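The median GC content of the longest transcript was 48.7% for the 25 members that fell, 46.2% for the 4 that rose and 43.3% for the 21 that did not pass, against 49.8% over all genes tested. Across the 50 members the log2 fold change went with GC content at Pearson r = -0.277, and across 13776 genes at r = 0.204; genes share libraries and are not independent, so these are descriptions. Exons of other genes on the opposite strand overlapped those of 9 further members beside Kif20a and, by 4 and 11 bases, those of Fzr1 and Kif18a. The largest share was in Ube2c, where Tnnc2 covered 592 bases or 22.8% of the exon length. The others were Ncapg (Lcorl, 944 bases), Prc1 (Rccd1, 911), Kif4 (Pdzd11, 832), Cdca8 (9930104L06Rik, 232), Nusap1 (Oip5, 172), Plk1 (Gm44985, 156), Kif22 (Gm31749, 96) and Cdc20 (Elovl1, 53). No values were analysed here for Tnnc2, Gm44985 and Gm31749. Of the other partners in this list Oip5 fell (log2 fold change -0.31), and Lcorl, Rccd1, Pdzd11, 9930104L06Rik and Elovl1 did not pass.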
